A study of Mus musculus with 35 samples.

Results

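The 8 genes described here encode scavenger receptors, surface proteins with which macrophages take up altered lipoproteins, dying cells, glycoproteins and free haemoglobin. They were chosen as the probe sets that carry the symbols Cd163, Mrc1, Stab1, Stab2, Marco, Scarb1, Olr1 or Lrp1. These symbols covered 12 of the 34945 probe sets with 1 gene symbol, and 8 of 18193 genes. Each gene was read from its brightest probe set on average, and all 8 passed the filter on dim genes in both models.

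Total RNA of flow-sorted blood and immune cells was hybridised to 35 Affymetrix mouse arrays, 1 sample per array. The donors of every group were male C57BL/6J mice of 8 weeks. From bone marrow came 2 arrays each of SatM and inflammatory monocytes, 4 arrays of SMP, 4 of cMoP, and 1 each of GMP and MDP. SatM is the name in the labels for a monocyte linked to fibrosis, SMP for its progenitor, and cMoP for the common monocyte progenitor. GMP is the granulocyte and monocyte progenitor, and MDP the progenitor of monocytes, macrophages and dendritic cells. SMP and cMoP each comprise 2 numbered arrays and 2 arrays titled WT, a word the labels do not explain. Neutrophils, eosinophils and basophils came from spleen, with 2 arrays each. A tissue panel of 15 arrays held M2-like resident macrophages (1 spleen, 1 bone marrow), 2 arrays of lung macrophages, and SatM of spleen, bone marrow, blood and lung. It also held 3 arrays of cells negative for Msr1 and Ceacam1 (spleen, bone marrow, blood), 2 of cells dull for both (bone marrow, lung) and 2 of other Ly6C-negative monocytes (spleen, blood). The lung arrays carry a lavage abbreviation in their titles. The labels give neither the sort gates in full nor how many mice went into a sample.

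Scavenger receptors share ligands rather than a common fold. Cd163 takes up haemoglobin bound to haptoglobin, and Mrc1, the mannose receptor, binds glycans that end in mannose. The stabilins Stab1 and Stab2 clear hyaluronan and modified proteins and are also known from sinusoidal endothelium. Marco, a class A receptor, binds bacteria and particles. Scarb1 takes up cholesterol from high-density lipoprotein, Olr1 binds oxidised low-density lipoprotein, and Lrp1 is a large endocytic receptor for apolipoprotein E remnants and protease complexes. In tissue, Cd163 and Mrc1 are common markers of resident macrophages, and Marco and Mrc1 of alveolar macrophages.

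The 4 genes that passed the test between M2-like macrophages and SatM are shown with sequence upstream of their annotated gene starts, since these genes moved together or in opposite directions. The sequences come from RefSeq's promoter table (build GRCm38.p6), in which 7 of the 8 genes had an entry. Scarb1 is named only. The table's windows hold the 250 bases before a transcript start, which need not be the outermost start of the gene. Of these windows, 15 bases for Cd163, 96 for Stab2, 185 for Olr1 and none for Mrc1 lay inside the annotated gene. Only the part before the gene is printed. Capitals mark the PU box GAGGAA, a core bound by the myeloid factor PU.1, or its reverse complement TTCCTC. The printed stretches are chr6:124304401-124304635 (plus strand) for Cd163, chr2:14229164-14229413 (plus strand) for Mrc1, chr10:87008039-87008192 (minus strand) for Stab2 and chr6:129507351-129507415 (minus strand) for Olr1.
Cd163: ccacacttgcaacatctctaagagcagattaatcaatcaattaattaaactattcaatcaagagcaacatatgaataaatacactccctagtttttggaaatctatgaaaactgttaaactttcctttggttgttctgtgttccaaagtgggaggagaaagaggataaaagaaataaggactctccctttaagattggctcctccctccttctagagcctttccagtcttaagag
Mrc1: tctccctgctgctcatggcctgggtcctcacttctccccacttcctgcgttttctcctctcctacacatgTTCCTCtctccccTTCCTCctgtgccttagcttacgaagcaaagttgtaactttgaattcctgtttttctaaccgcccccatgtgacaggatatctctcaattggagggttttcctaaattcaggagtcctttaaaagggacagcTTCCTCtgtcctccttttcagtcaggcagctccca
Stab2: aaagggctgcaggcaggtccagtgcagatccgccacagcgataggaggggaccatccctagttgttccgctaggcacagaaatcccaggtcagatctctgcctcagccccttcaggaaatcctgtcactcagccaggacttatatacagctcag
Olr1: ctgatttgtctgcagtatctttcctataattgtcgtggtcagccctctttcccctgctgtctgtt
The Mrc1 window held 3 PU boxes, starting 180, 167 and 35 bases before the gene start. The Olr1 window held 1, starting 76 bases before the transcript start used by the table, which puts it inside the annotated gene and outside the stretch printed. The Cd163 and Stab2 windows held none. Of the 3 windows not printed, Marco and Stab1 held 1 PU box each and Lrp1 none. Across all 32851 promoter windows of this length, 23.3% held at least 1 on either strand. The core of the MAF recognition element, TGCTGA or its reverse complement TCAGCA, was present in 16.1% of the windows and, among the 7 genes, in Stab1. The letters do not overlap between the motifs, and a match describes the sequence, not binding.

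Values are given as log2 levels, whose lowest value in the table, 2.30, is called the floor, and levels are compared between cells, not between genes. Levels of the 8 genes in every array are drawn in the plot by cell type. Several arrays stood apart from their labels or lay closest to another group, and the results below rest on them. All 4 SMP arrays had 8 of 8 measured basophil markers over their own median plus 1, with summed levels (log2 of the sum) of 16.48 to 16.66, against 2 to 3 markers and 7.43 to 8.14 in the 4 cMoP arrays. The array nearest to SMP 1 was basophil 2 (Pearson r 0.973 over genes). Lung SatM lay nearest to lung macrophage 2 (r 0.986), closer than the lung macrophage arrays lay to each other (0.966). Lung macrophage 1 held 9 of 9 measured alveolar macrophage markers and 8 of 10 lung epithelium markers, among them Scgb1a1 at 13.43. Its complement gene C1qa was at 2.45, against 11.76 in lung macrophage 2. The M2-like macrophage arrays held 13 and 14 of 14 measured macrophage markers in spleen and bone marrow.

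**Figure D1:**
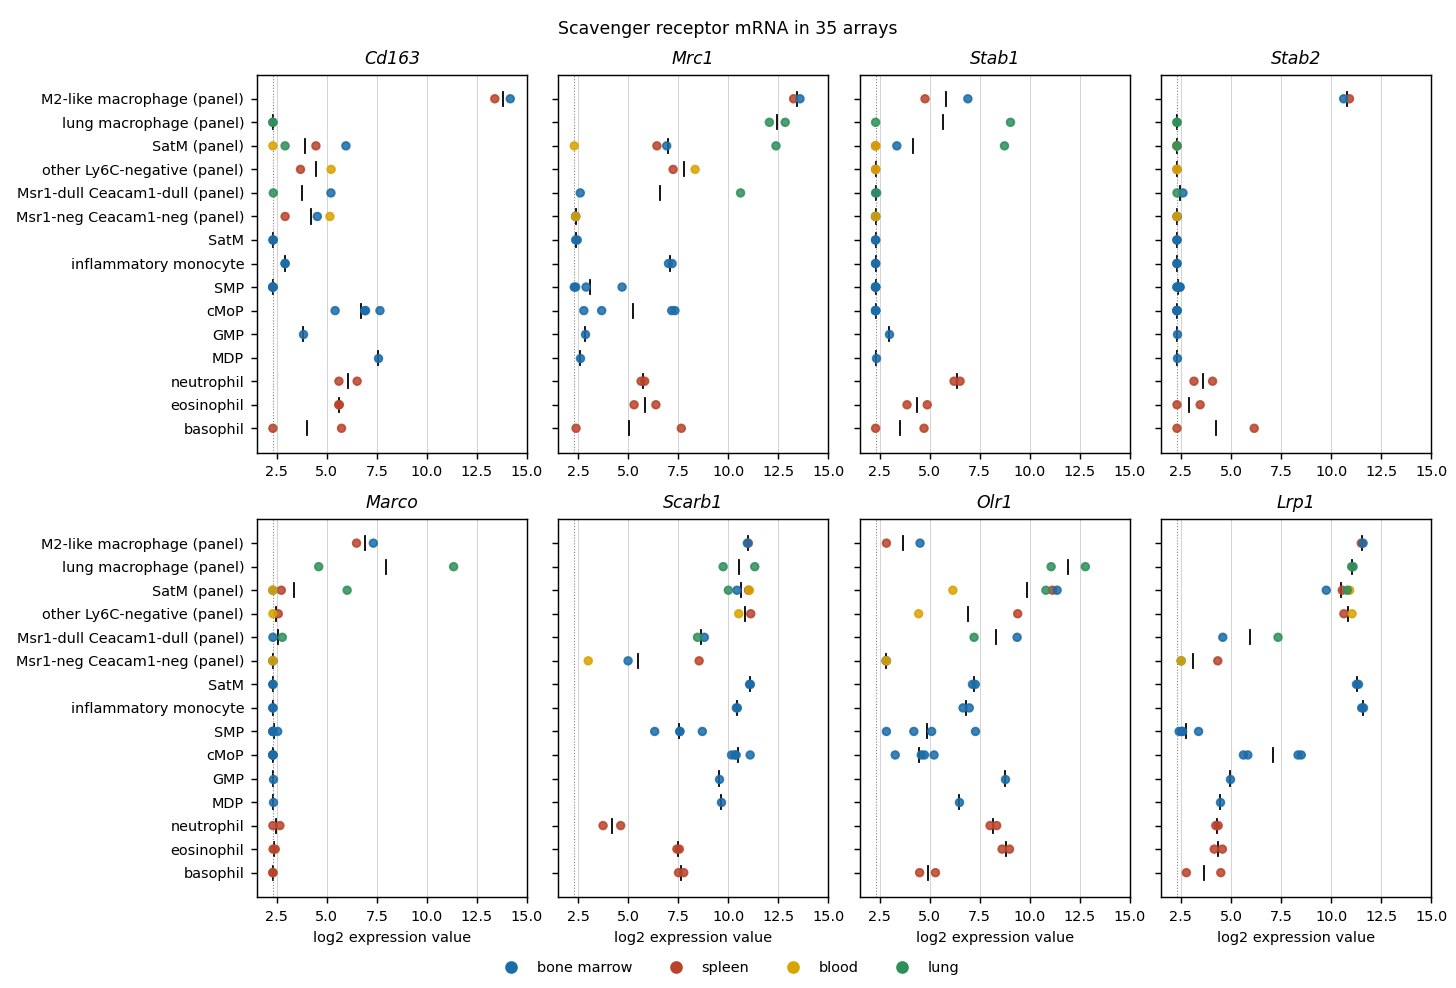
Log2 expression value of each gene (x axis, log2 units) in every array, by cell type (rows); points are arrays coloured by tissue, black ticks are group means, and the dotted line is the floor of 2.30. Stab2 was over 10 in the M2-like macrophages alone, and Cd163 at 13.39 and 14.16 there, while Olr1 was at 2.84 and 4.52 in these cells.

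M2-like macrophages of spleen and bone marrow carried far more Cd163, Mrc1 and Stab2 mRNA than SatM, and less Olr1. In all, 3 of the 8 genes were higher and 1 lower by the rule used throughout (limma adjusted p under 0.05, and a log2 difference of 1 or more in either direction). Of all genes, 8.31% were called, 5.39% as higher and 2.92% as lower. Their median fitted difference was 3.27, against 0.03 over all genes. Cd163, the haemoglobin receptor, was at 13.39 in spleen and 14.16 in bone marrow M2-like macrophages, against 4.45, 5.95, 2.30 and 2.91 in SatM of spleen, bone marrow, blood and lung. No SatM array reached the macrophage range. The fitted difference was 9.36 (limma adjusted p = 0.000993). Within a tissue the gene was 492-fold higher in spleen and 296-fold higher in bone marrow, with 1 array on each side.

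Mrc1 was at 13.26 and 13.58 in M2-like macrophages of spleen and bone marrow. In SatM it was at 6.43 in spleen, 6.92 in bone marrow, 2.30 in blood and 12.38 in lung. The 4 SatM arrays therefore ran from the floor nearly to the macrophage level, with lung highest. The fitted difference was 7.93 (limma adjusted p = 0.0052), and the plain difference was 6.84 within spleen and 6.66 within bone marrow.

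Stab2, a stabilin that clears hyaluronan, was at 10.92 in spleen and 10.63 in bone marrow M2-like macrophages, against the floor in all 4 SatM arrays. The plain differences give levels at least 393-fold higher in spleen and at least 322-fold higher in bone marrow, and the fit gave an adjusted p of 2.36e-07. Stab2 lay at or near the floor in all other sorts of the panel. Its small standard error (0.18 here) therefore rests largely on floor values. In all panel fits, its p-values are not a measure of spread above the floor. Because Stab2 is also a gene of sinusoidal endothelium, endothelial markers were read in the same arrays. The endothelial genes Cdh5, Kdr, Lyve1, Emcn and Flt4 were at 2.30 in both M2-like arrays. In bulk samples, fewer cells of a type and less RNA per cell cannot be told apart. Of 15 endothelial markers, 1 lay over the median plus 1 in each, Esam at 3.78 in spleen and Tek at 4.44 in bone marrow, and 13 and 10 lay at the floor, with summed levels of 6.41 and 6.62.

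Stab1, the other stabilin, was at 4.77 and 6.91 in M2-like macrophages, against 2.30, 3.36, 2.30 and 8.74 in SatM of spleen, bone marrow, blood and lung. The groups overlapped because of lung SatM, and the fitted difference of 2.46 did not pass the test (limma adjusted p = 0.503). Marco was at 6.48 and 7.32 in M2-like macrophages, against 2.72, 2.30, 2.30 and 6.01 in SatM. The groups did not overlap, but lung SatM lay close below the macrophages, and the fitted difference of 4.07 did not pass (adjusted p = 0.195). In bone marrow, where SatM lay at the floor, Marco was at least 32.4-fold higher in the macrophage array.

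Among the lipoprotein receptors, Olr1 ran the other way. It was at 2.84 in spleen and 4.52 in bone marrow M2-like macrophages, against 11.14, 11.37, 6.16 and 10.81 in SatM of spleen, bone marrow, blood and lung. Every SatM array lay above both macrophage arrays. The fitted difference was -7.21 (limma adjusted p = 0.0142). Of 14 alternatives, 6 ended the Olr1 call: without the spleen (0.142) or bone marrow (0.0687) M2-like array, without spleen (0.066) or bone marrow (0.0557) SatM, without the tissue term (0.0501) and with these groups alone (0.0966). Scarb1 averaged 10.98 ± 0.04 in M2-like macrophages (SD, n = 2) and 10.62 ± 0.51 in SatM (n = 4), with a fitted difference of -0.24 that did not pass. Lrp1 was at 11.51 and 11.60 in M2-like macrophages, against 10.56, 9.76, 10.93 and 10.81 in SatM, a fitted 1.42 that did not pass (adjusted p = 0.214). Without the spleen M2-like array, and without the tissue term, the count of calls fell to 2, Cd163 and Stab2. With the 6 arrays of these groups alone, none of the 8 genes passed. Cd163, Mrc1, Stab2 and Olr1 then differed by 8.58, 6.75, 8.48 and -7.58, all at the same limma adjusted p of 0.0966. The share of all genes called is not given for this alternative or the next, so their counts cannot be set against it. Without lung SatM and lung macrophage 2, an alternative chosen after the data were seen, 6 of the 8 passed, with Stab1 at 3.08 (limma adjusted p = 0.0157) and Marco at 4.41 (0.00132) added to the 4 above.

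**Figure D2:**
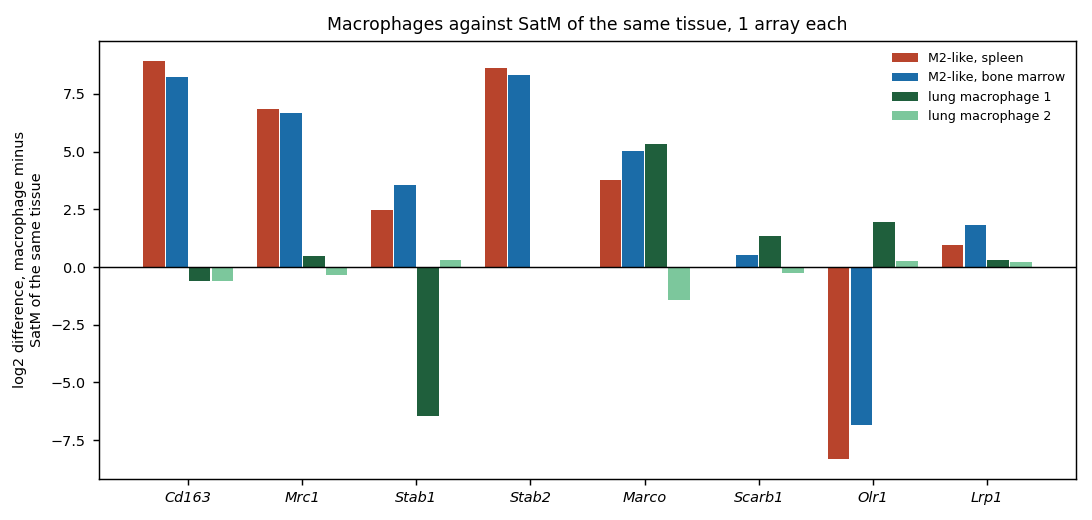
Difference in log2 level, macrophage array minus the SatM array of the same tissue (y axis, log2 units), for each gene; each bar sets 1 array against 1 array, so there is no error bar. In spleen and bone marrow Cd163, Mrc1 and Stab2 stood 6.66 to 8.94 above SatM and Olr1 6.85 to 8.31 below it, whereas in lung Cd163, Mrc1 and Stab2 bars lay between -0.61 and 0.46.

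Lung macrophages carried a different set. Cd163 and Stab2 lay at the floor in both lung macrophage arrays. Mrc1 was at 12.84 and 12.05, against 12.38 in lung SatM, and Olr1 was at 12.78 and 11.07, against 10.81 in lung SatM. Lung macrophage 1 and 2 differed from each other in Marco and Stab1. Marco was at 11.33 and 4.59, against 6.01 in lung SatM, and Stab1 was at the floor and at 9.04, against 8.74. Lung macrophage 1, with the epithelial and alveolar markers named above, was thus the Marco-high and Stab1-floor array. Whether those markers have a part in this was not tested.

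Set against all SatM arrays with tissue in the model, lung macrophages had 0 of 8 genes called by limma, and 0.239% of all genes were called. None of the 8 had an unadjusted p under 0.05, and none was called under quantile normalization, without the dim-gene filter or with each probe set by itself. Marco had a fitted difference of 2.78 (adjusted p = 0.794) and Olr1 of 1.71 (adjusted p = 0.813). The call depended on lung macrophage 2: without it, Marco differed by 6.15 (adjusted p = 0.0191), and without lung SatM as well by 8.31 (0.00181). Its second probe set had 8.59 in lung macrophage 1 and 3.84 and 3.70 in the M2-like arrays of spleen and bone marrow, and at most 2.38 in SatM.

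M2-like macrophages exceeded lung macrophages in Cd163 and Stab2. Lung macrophages sat at the floor for both genes, so the plain Cd163 means of 13.78 ± 0.54 and 2.30 ± 0.00 (SD, n = 2 each) give a lower bound of 11.48 for the difference. Cd163, Mrc1 and Stab2 were called, 3 of 8, all as higher, with 1.95% of all genes called and 1.45% as higher. The fitted values were 9.77 for Cd163 (limma adjusted p = 0.0125), 8.32 for Mrc1 (0.0476) and 8.34 for Stab2 (5.46e-06). The tissues of these groups do not overlap, so the fit links them through SatM and the Msr1-dull cells of the same tissues. For Mrc1 this matters, since the plain means were 13.42 ± 0.22 in M2-like and 12.44 ± 0.56 in lung macrophages (SD, n = 2 each). Without the tissue term the Mrc1 difference was 0.98 (adjusted p = 0.934), and leaving out any 1 of the 4 macrophage arrays ended its call (0.106 to 0.162). Without the spleen M2-like array the 1 gene that passed was Stab2. The fitted 8.32 is the difference between the contrasts with SatM, and lung SatM and lung Msr1-dull cells were themselves at 12.38 and 10.61. Cell type and tissue cannot be told apart between M2-like and lung macrophages. Olr1 was at 3.68 ± 1.19 in M2-like and 11.92 ± 1.21 in lung macrophages (SD, n = 2 each), with a fitted difference of -8.92 that did not pass (adjusted p = 0.0663), although without the tissue term it did (-8.24, 0.0345).

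The mean of both kinds of macrophage was also set against the mean of the other 4 sorts of the panel. By their markers, these sorts were not all monocytes. The Msr1-negative arrays of spleen, bone marrow and blood had Csf1r, the growth factor receptor of monocytes and macrophages, at 9.49, 3.67 and 2.30, and Nkg7, a gene of cytotoxic lymphocytes, at 12.83, 13.71 and 14.12. The bone marrow Msr1-dull array had Epx, eosinophil peroxidase, at 12.55. Csf1r was at 13.21 to 14.26 in the SatM arrays of the panel and at 13.41 and 13.99 in other Ly6C-negative monocytes.

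Against all 4 sorts, 4 of 8 genes were higher in the mean of both kinds of macrophage and none lower. Of all genes, 4.96% were called and 3.5% as higher. Cd163 differed by 4.40 (limma adjusted p = 0.0111), Mrc1 by 4.35 (0.0226), Stab2 by 4.24 (4.76e-06) and Lrp1 by 3.4 (0.00506). The median over the 8 was 3.67, against -0.01 over all genes. With SatM and other Ly6C-negative monocytes alone as the reference, an alternative chosen after the data were seen, 2 of 8 genes passed, where 2.63% of all genes were called and 1.65% as higher. These were Cd163 at 4.17 (limma adjusted p = 0.0389) and Stab2 at 4.29 (1.72e-05). Lrp1 then differed by 0.4 (0.747) and Mrc1 by 2.24 (0.266). Mean Lrp1 levels were 11.56 in M2-like and 11.06 in lung macrophages, against 10.52 in panel SatM, 10.85 in other Ly6C-negative monocytes, 5.97 in Msr1-dull cells and 3.12 in Msr1-negative cells.

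The macrophages differed among themselves too, since lung macrophages had Cd163 and Stab2 at the floor. Their fitted differences from SatM were -0.41 for Cd163 and 0.1 for Stab2. The Cd163 and Stab2 calls for macrophages therefore rest on the M2-like arrays and do not describe lung macrophages. Of 23 alternatives, 10 ended the Mrc1 call. Without the spleen M2-like array, Stab2 and Lrp1 alone passed. Without the spleen Msr1-negative array, Scarb1 passed as well (2.28, limma adjusted p = 0.0357). Without lung SatM and lung macrophage 2, Marco passed (6.44, adjusted p = 0.000236) and Mrc1 did not. Marco also passed without lung macrophage 2 alone (5.64, 0.00134) and without the tissue term (4.78, 0.0176).

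Genes that work beside these receptors were read from lists of their pathways, with the count against SatM and other Ly6C-negative monocytes alone given after that against all 4 sorts. Of 12 tested genes of haemoglobin and heme handling, 8 were higher in macrophages than in the 4 sorts and none lower, and 3 were higher against the monocytes alone. Hmox1, which breaks down heme, differed by 5.52 (limma adjusted p = 8.55e-05) and, against the monocytes alone, by 3.07 (0.0067). The iron exporter Slc40a1 (6.20, 0.0318) and Spic, a transcription factor of iron-recycling macrophages (4.19, 0.0236), passed against the 4 sorts but not against the monocytes alone (5.98, 0.0848 and 3.03, 0.142). Of 12 tested genes of cholesterol efflux and lipoproteins, 5 were higher, and 2 against the monocytes alone, with Nr1h3, the oxysterol receptor, at 5.13 (adjusted p = 5.39e-05) and 5.03 (0.000221). In the LDL receptor family, 4 of 11 were higher, and 3 against the monocytes alone, among them Lrp4 at 4.07 (0.0042) and 3.36 (0.0292). Of 11 other scavenger receptors, 3 were higher, and none against the monocytes alone. Of 4 genes of the mannose receptor family and the lectin neighbours of Olr1, 1 was higher, Clec1b at 5.50 (0.0204), and none against the monocytes alone.

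Between M2-like macrophages and SatM, 6 of the 12 heme genes were higher, and Hp, which encodes haptoglobin, was lower (-7.15, limma adjusted p = 0.0161). Between lung macrophages and SatM, none of the 12 was called. Markers of red cell precursors and of neutrophils moved in the same comparison. Of 3 tested erythroid markers, 2 were higher in M2-like macrophages (median 2.21). The anion exchanger Slc4a1 was at 4.26 and 11.76 in M2-like macrophages of spleen and bone marrow, against 2.30, 9.39, 2.30 and 2.30 in SatM of spleen, bone marrow, blood and lung. Alas2, the erythroid enzyme of heme synthesis, was at 5.90 and 9.40, against 2.30, 6.22, 2.30 and 2.30. Summed levels of the 4 measured erythroid markers were 6.47 and 12.04 in M2-like macrophages and 4.3 to 9.57 in SatM. Of 7 neutrophil markers, 1 was lower and none higher (median -5.76), with summed levels of 7.06 and 13.89 in M2-like macrophages, against 15.32, 16.98, 8.97 and 9.57 in SatM. The alarmin gene S100a9 was at 6.49 and 13.27, against 14.39, 15.40, 8.26 and 3.72. Against the 4 sorts, 1 of 3 erythroid markers was higher and no neutrophil marker was called. The part of these cells in the heme and Hp differences, and in those of the receptors, was not tested.

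SatM exceeded Msr1-negative Ceacam1-negative cells in the lipoprotein receptors. Lrp1, Olr1 and Scarb1 were higher, 3 of 8, where 10.2% of all genes were called and 4.94% as higher. Lrp1 was at 10.56, 9.76 and 10.93 in SatM of spleen, bone marrow and blood, against 4.34, 2.51 and 2.51 in Msr1-negative cells of these tissues. The groups were far apart in each tissue, by 6.22 to 8.42, and the fitted difference was 7.12 (limma adjusted p = 0.000259). Olr1 was at 11.14, 11.37 and 6.16 in SatM, against 2.82, 2.84 and 2.84. The blood SatM array was the low one, and the fitted difference was 6.92 (adjusted p = 0.00772).

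Scarb1 was at 11.01, 10.43 and 11.05 in SatM of spleen, bone marrow and blood, against 8.54, 4.99 and 3.0 in Msr1-negative cells. The spread lay in the Msr1-negative cells, and the fitted difference was 5.29 (limma adjusted p = 0.0133). Cd163 was not separated, at 4.45, 5.95 and 2.30 in SatM and 2.91, 4.52 and 5.15 in Msr1-negative cells. Mrc1 was at 6.43, 6.92 and 2.30 in SatM and at 2.37 in each Msr1-negative array, a fitted 2.69 that did not pass (adjusted p = 0.117). Both results changed when blood SatM was left out: Mrc1 passed (4.11, limma adjusted p = 0.0149) and Scarb1 did not (4.50, 0.0709). The Scarb1 call also ended without the bone marrow Msr1-negative array (0.0694). Of 11 tested other scavenger receptors, 5 were higher in SatM, with Cd14 at 6.73 and Cd36 at 6.52. Another of the 5, Msr1 at 5.79, was a marker of the sort and is no finding. With the arrays of these groups alone, Lrp1 was the 1 gene that passed.

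The Msr1-negative arrays also held lymphoid RNA. Ncr1, a receptor of natural killer cells, was at 9.73, 10.49 and 11.86 in them, against the floor in all 4 panel SatM arrays. Of 6 measured T and natural killer cell markers, 5 to 6 lay over the median plus 1 in Msr1-negative arrays, with summed levels of 13.19 to 14.40, against 0 to 4 and 5.19 to 10.98 in panel SatM. Of 7 neutrophil markers, 3 were higher in SatM (median 5.67). The part of these cells in the differences was not tested.

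In bone marrow, SatM carried less Mrc1 than inflammatory monocytes. Mrc1 was at 2.45 and 2.37 in SatM, against 7.01 and 7.19 in inflammatory monocytes, and the groups did not overlap. The fitted difference was -4.69 (limma adjusted p = 0.0351), the 1 call among the 8 genes, where 9.34% of all genes were called and 6.47% as lower. The call was lost when any 1 of the 4 arrays was left out (adjusted p = 0.116 to 0.174). Adding the panel array of bone marrow SatM, at 6.92, gave -3.19 (adjusted p = 0.216). Granulocyte markers moved in the same comparison, with 4 of 7 eosinophil markers (median 1.65) and 2 of 7 neutrophil markers (median 2.53) higher in SatM and none lower. The eosinophil granule genes Prg2 and Epx were at 12.69 and 11.11 in SatM 1 and 11.51 and 8.62 in SatM 2, against 2.30 in both inflammatory monocyte arrays. Summed levels were 13.19 and 11.76 in SatM, against 5.31 and 5.24, for 7 eosinophil markers, and 14.83 and 15.47, against 13.65 and 12.53, for 7 neutrophil markers. Their part in the Mrc1 difference was not tested.

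The other genes differed less between these monocytes. Olr1 was at 7.28 and 7.14 in SatM and 6.67 and 6.98 in inflammatory monocytes, a fitted 0.38. Scarb1 was at 11.10 and 11.06 against 10.40 and 10.45, and Lrp1 at 11.27 and 11.37 against 11.62 and 11.53. Stab1, Stab2 and Marco lay at the floor in all 4 arrays. The probe sets of Lrp1 disagreed here: the second one was 1.52 higher in SatM (limma adjusted p = 0.0221, each probe set tested by itself), while the representing one differed by -0.25. Among other scavenger receptors, the fatty acid and oxidised lipoprotein receptor Cd36 was 5.52 higher (adjusted p = 2.75e-05) and the class A receptor Msr1 was lower (-3.89, adjusted p = 0.000186). Msr1 is a sort marker in the panel, where it was higher in SatM than in Msr1-negative cells, not lower as here. The labels do not give the full gates, and the part of the sort in the Msr1 difference was not tested.

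The progenitor SMP carried less Lrp1, Cd163 and Scarb1 than cMoP, as the plot of marrow cells shows. These 3 of 8 genes were lower and none higher, where 35.5% of all genes were called and 22.7% as lower. Lrp1 was at 2.54, 3.38, 2.58 and 2.41 in SMP 1, SMP 2, SMP WT 1 and SMP WT 2. In cMoP it was at 8.35 and 8.51 in the numbered arrays and at 5.62 and 5.84 in those titled WT. The groups did not overlap, although cMoP fell into its 2 sets, and the fitted difference was -4.35 (limma adjusted p = 7.39e-06).

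Cd163 lay at the floor in all 4 SMP arrays, against 7.65, 6.89, 6.93 and 5.41 in cMoP. The plain difference of -4.42 is therefore a bound on its size (adjusted p of the fit 6.4e-05). Scarb1 was at 8.70, 7.57, 7.58 and 6.32 in SMP, against 10.39, 10.33, 11.09 and 10.16 in cMoP, a fitted -2.95 (limma adjusted p = 4.5e-05). Every SMP array lay below every cMoP array for all 3 genes. Mrc1 overlapped, at 4.69, 2.89, 2.30 and 2.37 in SMP and 7.17, 7.33, 2.78 and 3.67 in cMoP (fitted -2.17, limma adjusted p = 0.0678), and it passed without cMoP WT 1 (-2.61, 0.0497) and with these groups alone (0.0306). Olr1 overlapped too, at 5.10, 2.84, 7.29 and 4.21 in SMP and 4.74, 5.22, 3.28 and 4.58 in cMoP.

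The SMP minus cMoP difference was also compared between the WT-titled and the numbered arrays. None of the 8 genes passed limma's test, where 1.75% of all genes did, and 2 of them (Lrp1 and Olr1) had an unadjusted p under 0.05. For Lrp1 it was -3.24 in the WT-titled set and -5.47 in the numbered set, an interaction of 2.23 (limma adjusted p = 0.143). For Mrc1 it was -0.89 in the WT-titled set and -3.46 in the numbered set (interaction 2.56, adjusted p = 0.573). Of 12 other scavenger receptors tested, 4 were lower in SMP, Cd68 (-5.49), Cd14 (-4.46), Scarb2 (-4.41) and Msr1 (-3.71). Besides the 8 basophil markers, 5 of 7 eosinophil, 5 of 7 neutrophil and 2 of 3 erythroid markers were higher in SMP. Whether these markers have a part in the differences was not tested.

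**Figure D3:**
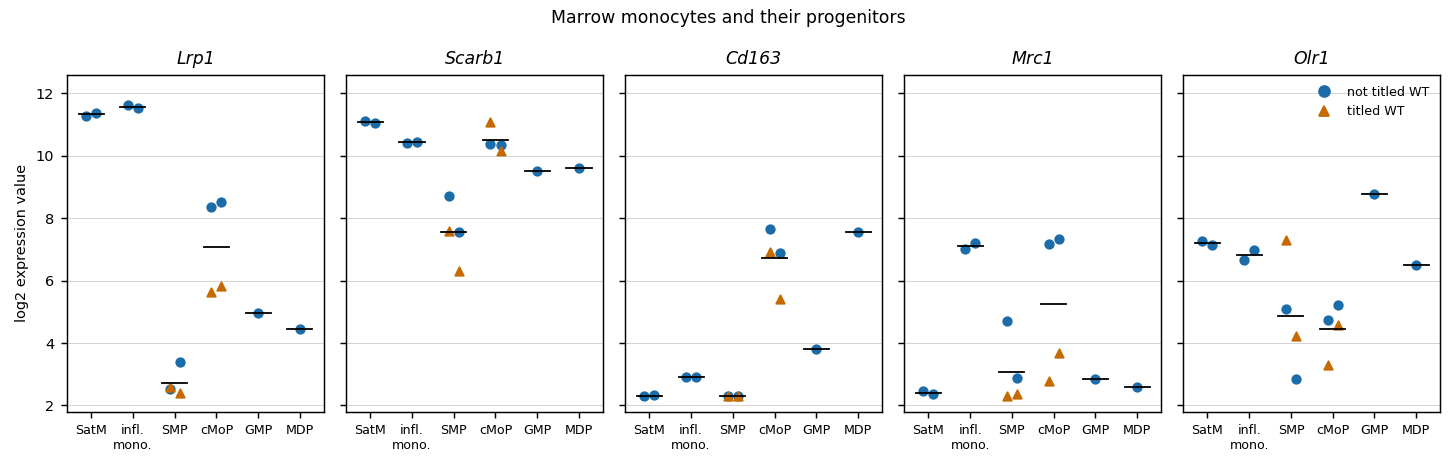
Log2 level (y axis, log2 units) of 5 receptors in bone marrow SatM, inflammatory monocytes (infl. mono.), SMP, cMoP, GMP and MDP; points are arrays, triangles those titled WT, and lines are group means. Lrp1 lay between 11.27 and 11.62 in both monocytes and between 2.41 and 3.38 in SMP, and Cd163 lay at the floor in SMP and at 5.41 to 7.65 in cMoP.

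Each monocyte was then set against its named progenitor. SatM exceeded SMP in Lrp1, at 11.27 and 11.37 in SatM against 2.41 to 3.38 in SMP, and the fitted difference was 7.80 (limma adjusted p = 6.48e-07). Scarb1 was also higher, by a fitted 3.31 (adjusted p = 0.000252). These 2 of 8 genes were higher and none lower, where 26.8% of all genes were called and 12.8% as higher. Olr1 had a fitted 2.53 that did not pass (adjusted p = 0.0697). It passed without SMP WT 1, the SMP array with the highest Olr1 (2.98, limma adjusted p = 0.00369), and without all arrays titled WT (3.24, 0.00291). Of 12 cholesterol efflux and lipoprotein genes, 9 were higher in SatM, with Apoc2 at 8.44 (3.77e-08) and Lpl, lipoprotein lipase, at 7.67 (2.82e-05). All 8 measured basophil markers were lower in SatM than in SMP (median -10.82), and 5 of 7 neutrophil markers were higher and 1 lower. Mean levels in SMP and spleen basophils were 2.73 and 3.63 for Lrp1, and 7.54 and 7.64 for Scarb1. Whether these markers have a part in the differences was not tested.

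Inflammatory monocytes exceeded cMoP in Lrp1 and lay below it in Cd163. Lrp1 was at 11.62 and 11.53 in inflammatory monocytes against 5.62 to 8.51 in cMoP (fitted 3.70, limma adjusted p = 0.000911). Cd163 was at 2.91 in both inflammatory monocyte arrays against 5.41 to 7.65 in cMoP (fitted -4.09, adjusted p = 0.00313). These were the 2 calls among 8 genes, where 14.9% of all genes were called, 6.62% as higher and 8.25% as lower. Of the earlier progenitors, with 1 array each, GMP and MDP had Lrp1 at 4.95 and 4.46, Cd163 at 3.80 and 7.55, and Olr1 at 8.77 and 6.49. Apoe, whose protein Lrp1 binds, was 5.43 higher in inflammatory monocytes than in cMoP (adjusted p = 8.56e-05), and 6 of 12 cholesterol efflux and lipoprotein genes were higher.

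Bone marrow monocytes differed from spleen granulocytes in 4 of 8 genes, 2 in each direction, where 31.3% of all genes were called, 15.5% as higher and 15.8% as lower. Lrp1 was higher by 7.35 (limma adjusted p = 2.44e-08) and Scarb1 by 4.32 (6.07e-07). Cd163 was lower, at -2.62 (0.00172), and Stab1 at -2.45 (9.28e-05). Without basophil 2, Mrc1 (-1.65, limma adjusted p = 0.0241) and Stab2 (-1.92, 3.8e-05) passed as well. Tissue and cell type cannot be told apart in this comparison. Lrp1 was at 11.27 to 11.62 in the 4 monocyte arrays, against 2.77 to 4.57 in the 6 granulocyte arrays. Stab1 lay at the floor in the monocytes, against 6.22 and 6.52 in neutrophils, 3.87 and 4.88 in eosinophils and 4.72 and 2.30 in basophils.

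Within the granulocytes, neutrophils were highest in Stab1 and lowest in Scarb1. Scarb1 was at 3.74 and 4.62 in neutrophils, 7.43 and 7.55 in eosinophils and 7.51 and 7.77 in basophils. Neutrophils differed from the other granulocytes by 2.43 in Stab1 (limma adjusted p = 0.000937) and by -3.38 in Scarb1 (7.21e-05), 2 of 8 genes, where 41% of all genes were called, 17.2% as higher and 23.8% as lower. Basophils were lower in Olr1, at 5.29 and 4.50, against 8.99 and 8.62 in eosinophils and 8.02 and 8.35 in neutrophils (fitted -3.60, adjusted p = 0.00823). Basophils had 3 of 8 genes called, where 26.5% of all genes were called, 15.4% as higher and 11% as lower. Eosinophils had 1 of 8, as higher, where 29.7% of all genes were called and 16.5% as higher. This was Scarb1, with means of 7.49 in eosinophils, 7.64 in basophils and 4.18 in neutrophils, so eosinophils exceeded neutrophils but not basophils. Its other probe sets, each tested by itself, did not pass (1.12, limma adjusted p = 0.195, and 1.49, 0.0737). The eosinophil call, Scarb1 at 1.58 (adjusted p = 0.0189), was lost without either eosinophil array or without neutrophil 1.

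The basophil arrays differed from each other. In basophil 1, Cd163, Mrc1, Stab1 and Stab2 were at 5.73, 7.65, 4.72 and 6.16, and in basophil 2 at 2.30, 2.39, 2.30 and 2.30. Basophil 1 also held 4 of 15 endothelial markers over its median plus 1 (Flt4, Plvap, Ptprb and Tek at 5.70, 6.36, 5.44 and 6.25), against 0 in basophil 2, with summed levels of 8.28 and 6.30. Cdh5, Kdr, Lyve1 and Emcn were at 2.30 in both. Vcam1, 1 of 14 measured macrophage markers, was at 10.19 in basophil 1 and 5.41 in basophil 2. The list as a whole was not raised in the 2 basophil arrays together. Of 10 macrophage markers tested against eosinophils and neutrophils, 2 were lower and none higher (median -0.75). Of 4 measured erythroid markers, 3 lay over the median plus 1 in each, with summed levels of 11.59 and 9.69. The part of other cells in these values was not tested. Without basophil 1, basophils had 5 calls, with Cd163 at -3.53 and Mrc1 at -3.39 added. Without basophil 2 the 1 call was Stab2 at 2.91 (limma adjusted p = 0.000197).

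**Figure D4:**
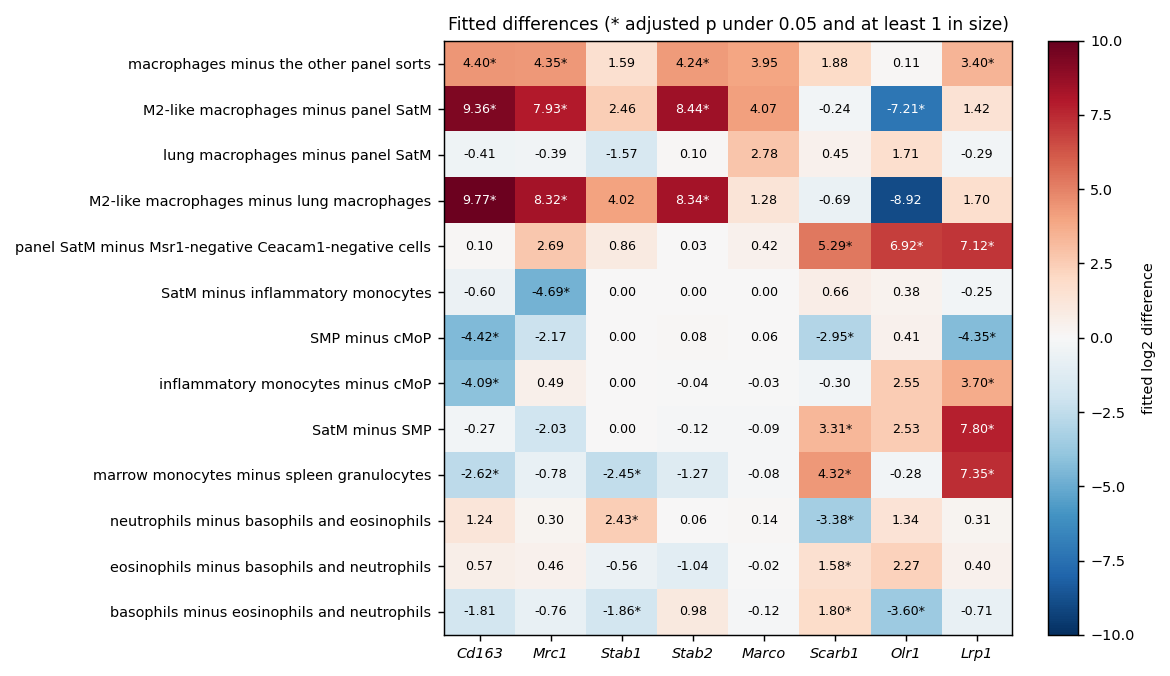
Fitted log2 difference (colour and number) of each gene in 13 comparisons, first-named cells minus the others; an asterisk marks a limma adjusted p under 0.05 with an absolute difference of at least 1. Scarb1 passed in 7 of the 13, Lrp1 and Cd163 in 6 each, Mrc1 in 4, Stab1, Stab2 and Olr1 in 3 each, and Marco in 0. Many comparisons use the same arrays, so the passes of a gene are not separate results. This holds among granulocytes, among the panel comparisons and among marrow monocytes and progenitors.

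Ordered by mean level, the cells ranked differently for each gene. For Cd163 the M2-like macrophages led at 13.78 ± 0.54 (SD, n = 2), ahead of MDP at 7.55 and cMoP at 6.72 ± 0.94 (n = 4), and MDP and cMoP overlapped. For Mrc1, M2-like macrophages led, then lung macrophages at 12.44 ± 0.56, then other Ly6C-negative monocytes at 7.79 ± 0.78 (n = 2), without overlap between these neighbours. Groups with lower means still held high lung arrays. Lung SatM at 12.38 lay within the lung macrophage range, and lung Msr1-dull cells at 10.61 lay above the other Ly6C-negative monocytes. For Stab2, M2-like macrophages at 10.77 ± 0.20 (n = 2) were followed by basophils at 4.23 ± 2.73 (n = 2), where 1 array was at the floor. Stab2 lay at the floor in 26 of 35 arrays, Stab1 and Marco in 23 each, Cd163 in 9 and Mrc1 in 2.

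For Stab1, neutrophils led at 6.37 ± 0.22 (n = 2), overlapping with M2-like macrophages at 5.84 ± 1.51 and these with lung macrophages at 5.67 ± 4.77. For Marco, lung macrophages at 7.96 ± 4.76 overlapped with M2-like macrophages at 6.90 ± 0.59. For Scarb1, bone marrow SatM at 11.08 ± 0.03 were followed by 6 overlapping groups down to inflammatory monocytes at 10.43 ± 0.04, and neutrophils came last at 4.18 ± 0.62. These SatM did not stand clear. They lay within the ranges of other Ly6C-negative monocytes (10.52 to 11.12) and lung macrophages (9.74 to 11.32). For Olr1, lung macrophages at 11.92 ± 1.21 overlapped with panel SatM at 9.87 ± 2.49 (n = 4), and Msr1-negative cells came last at 2.83 ± 0.01 (n = 3). For Lrp1, inflammatory monocytes at 11.57 ± 0.07 and M2-like macrophages at 11.56 ± 0.06 overlapped, and SMP came last at 2.73 ± 0.44 (n = 4).

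Blood SatM and the other Ly6C-negative monocytes of blood differed most in Mrc1, with no replicate to test it. Blood SatM had Mrc1 at the floor and Olr1 at 6.16, against 8.34 and 4.45 in other Ly6C-negative monocytes of blood, with 1 array each. In spleen, SatM had Mrc1 at 6.43 and Olr1 at 11.14, against 7.24 and 9.40. The Msr1-dull Ceacam1-dull cells differed between tissues, with Mrc1 at 2.60 in bone marrow and 10.61 in lung, and Olr1 at 9.37 and 7.22. The bone marrow array of these cells lay nearest to eosinophil 2 over all genes (r 0.956).

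Across the 35 arrays, the genes whose levels ran most like each receptor were found among 10976 genes by Pearson r, given as a description because arrays share cell types and the floor. Stab2 ran with Epor (0.966), Paqr9 (0.940) and Slc16a9 (0.935), and Marco with Sh3bgrl2 (0.973), Cpne8 (0.952) and Tanc2 (0.933). Cd163 ran with Epb41l3 (0.878), Mpzl1 (0.814) and Col19a1 (0.813), and Mrc1 with Axl (0.918), Plxna1 (0.871) and Pdgfc (0.849). For the lipoprotein receptors, Lrp1 ran with Fcgr1 (0.954), Ctsa (0.953) and Ifi207 (0.950), and Scarb1 with Tspan31 (0.912), Ctnnd1 (0.902) and Rassf4 (0.890). Olr1 had weaker partners, Cpd (0.752), Noct (0.740) and Il1rn (0.719), and Stab1 ran with Ccl12 (0.814), Bvht (0.751) and Slc37a2 (0.738). Among the 8 themselves, Cd163 and Stab2 had r 0.80, Scarb1 and Lrp1 0.77, and Mrc1 and Marco 0.73.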

How the data were processed

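The table deposited by the authors gives a log2 expression value for each probe set and array of an Affymetrix mouse platform. That the base is 2 was inferred from the range of 2.30 to 16.02, and the authors' processing method is not given in the sources used here. Array medians ran from 2.31 to 2.39, upper quartiles from 6.09 to 6.56, and 46.5% to 49.5% of the probe sets of an array lay within 0.01 of the common minimum. Arrays have no depth to give, and their number limits the precision. Of 45101 probe sets, 64 were controls, 9160 had no gene symbol and 932 had more than 1, and these were not used. The other 34945 (34741 matched by Entrez identifier) gave 18193 genes, each read from the probe set that was brightest on average. 9010 genes had more than 1 to choose from, and 1 value was missing.

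Groups came from the titles and cell type labels, and the lung macrophage arrays, which have different titles, from the latter. One model held the 20 arrays outside the panel (cell type, and a term for arrays titled WT, 10 residual degrees of freedom) and 12077 genes with at least 2 arrays over that array's median. The other held the 15 panel arrays (cell type and tissue, 6 residual degrees of freedom) and 11734 genes. Both were fitted with limma 3.58.1 in R 4.3.3 (lmFit, eBayes with trend). p-values were adjusted by Benjamini-Hochberg over all genes of a comparison, and a gene was called at an adjusted p under 0.05 with an absolute log2 difference of at least 1. The fit was tested on simulated data. A gene at the floor in most cells passes the filter through the few cells where it is high. This holds for Stab2 in the panel (M2-like macrophages) and Stab1 outside it (granulocytes and GMP). Passing is thus no support for their calls in these cells. Marco outside the panel passed with levels of at most 2.65. Tables were made with Python 3.11.15, numpy 2.4.6, pandas 2.3.3 and matplotlib 3.10.9. A plain difference from a group at the floor is a bound, and a fitted one is not.

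The labels do not say that replicates came from separate mice, so p-values measure only the spread between these samples, which may be technical. In the panel, only lung macrophages had repeated arrays of a cell type in a tissue, under different titles. The spread in the panel fit is therefore mostly departure from additive cell type and tissue terms. Panel p-values do not measure spread between replicates. Nor do they say whether same-numbered samples belong together, and deviations of such samples from their group means correlated at -0.05 to 0.23. Named genes were the 8 receptors, the 3 genes most like each over the arrays, up to 4 called genes per list and comparison with the largest differences, and markers where a result turned on them. The 8 genes and the lists were chosen with earlier results of these data known. Alternatives were quantile normalization, no dim-gene filter, averaged probe sets, each probe set by itself, the compared groups alone, no trend, no fold threshold, a replicate block, no tissue term, an added SatM array, 2 of the 4 panel sorts as the reference, and leaving out arrays.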

Additional observations from a re-analysis of the deposited data

Results flagged for a closer look

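Of 18 groups of 4 arrays examined among the 8 genes, 4 had 1 array whose gap to its nearest neighbour was, as a share of the group's range, past Dixon's critical value. Chance passes that value in about 1 of 20 groups of normally spread replicates, a rate that cannot be set against these groups. The panel SatM arrays come from 4 tissues, and 2 of them lay at the floor for Stab1 and for Marco. In SMP, 3 of 4 arrays lay at the floor for Marco, so any other value would be past it. In the 4 panel SatM arrays, lung SatM stood apart in Stab1, at 8.74, and in Marco, at 6.01, and blood SatM stood apart in Olr1, at 6.16. Among the 4 SMP arrays, SMP 2 stood apart in Marco, at 2.54, close to the floor.

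The difference of macrophages from SatM differed between spleen and bone marrow on the one side and lung on the other in 3 genes. This is the fit of M2-like against lung macrophages given above: Cd163 by 9.77 (limma adjusted p = 0.0125), Mrc1 by 8.32 (0.0476) and Stab2 by 8.34 (5.46e-06). Of 11 alternatives, 8 ended the Mrc1 call, 2 the Cd163 call and 0 the Stab2 call. For Stab2 the spread in these fits rests largely on floor values. Mrc1 differed by 0.98 (adjusted p = 0.934) without the tissue term, and Cd163 was lost without the spleen M2-like array (0.0556) and without lung SatM and lung macrophage 2 (0.0649). For Mrc1, lung SatM was as high as lung macrophages.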

How the results depend on the processing

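There were 32 calls of a gene in a comparison. Of these, 16 were kept under every alternative run, and 16 were lost under at least 1. None of the 32 changed sign. Results that were not called did: over 112 single gene results and 1539 alternatives, 65 alternatives turned the sign, in 31 results. Among them, without the tissue term, were lung macrophages minus SatM for Mrc1 (5.44, against -0.39) and Stab1 (1.49, against -1.57). In 1 case the turned value passed the test: Marco between M2-like and lung macrophages was -3.90 (adjusted p = 0.0214) without lung SatM and lung macrophage 2, an alternative chosen after seeing the data, against 1.28 with them.

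Except with SatM and other Ly6C-negative monocytes as the reference, shares over all genes are not given for the alternatives. Counts of called genes moved by over 1.5 times as follows. For SatM against inflammatory monocytes (1 call) the count was 0 without the dim-gene filter, 2 with each probe set by itself, 0 with the panel array of bone marrow SatM added, and 0 to 0 with 1 array left out. With a replicate block it was 0, with Mrc1 at -4.69 (limma adjusted p = 0.0741). The block changed no other count. The labels do not say whether same-numbered samples share a mouse or a sort, so whether the block fits the design is not known. For eosinophils (1 call) the count was 0 with averaged probe sets and 2 with the granulocytes alone, and 0 to 3 with 1 array left out, 0 without either eosinophil array or neutrophil 1, 2 without basophil 1 and 3 without basophil 2. For M2-like macrophages against SatM (4 calls) it was 0 with these groups alone, 2 without the tissue term and 2 to 4 with 1 array left out. For SatM against Msr1-negative cells (3 calls) it was 1 with these groups alone. For macrophages against the other panel sorts (4 calls) it was 2 with SatM and other Ly6C-negative monocytes alone as the reference. For lung macrophages against SatM (0 calls) it was 1 without lung SatM and lung macrophage 2.

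Leaving out 1 array gave 2 to 4 calls for neutrophils (2 calls, and 4 without basophil 1), 1 to 5 for basophils (3), 2 to 5 for macrophages against the panel sorts (4), 0 to 1 for lung macrophages (0) and 1 to 2 for M2-like against lung macrophages (3). A group left with 1 array was taken to vary like the other groups. The cause of these changes was not tested, beyond the fewer arrays in the fits. M2-like against lung macrophages with their own arrays alone could not be fitted and was not run. With 1 to 4 arrays per group, the precision is low, and levels near the floor carry no order.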
